A study of Arabidopsis thaliana with 8 samples.

Results

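The genes described here are 80 nuclear genes of Arabidopsis thaliana whose array signal was at least 4-fold lower in seedlings given heat and then anoxia than in control seedlings, while neither heat alone nor anoxia alone lowered the mean signal 2-fold. They were chosen from the group means of log2 intensity: a control mean of at least 6, heat then anoxia minus control at -2 or lower, heat minus control and anoxia minus control both above -1, and both heat then anoxia arrays below all 6 other arrays. The 80 genes, each with 1 probe set, come from 13217 nuclear genes that a probe set of 1 gene measures, and are 1.45% of the 5531 such probe sets with a control mean of at least 6. Only 16 of the 80 have a symbol in the name tables; the others are given by locus.

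RNA came from whole seedlings of the ecotype Columbia 0, hybridised to 8 Affymetrix ATH1 arrays in 4 groups of 2 biological replicates. All seedlings had 2 days at 4 °C in the dark and then 4 days at 23 °C in the dark, in liquid half-strength Murashige and Skoog medium with 30 mM sucrose. The heat then anoxia seedlings were kept for 90 minutes at 38 °C and afterwards for 6 hours without oxygen at 23 °C, the heat seedlings had only the 90 minutes at 38 °C, the anoxia seedlings only the 6 hours without oxygen, and the controls neither. Oxygen was removed in an anaerobic chamber flushed with nitrogen and hydrogen, and every treatment was given in the dark. In a whole-seedling sample, fewer cells that hold a transcript and less of it per cell cannot be told apart. Nor can anoxia after heat and time after heat, since no group had heat and then 6 hours with oxygen.

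In seedlings grown in the dark the plastids are etioplasts, which hold precursors of chlorophyll and become chloroplasts once light arrives. Most plastid proteins are encoded in the nucleus, among them the enzymes that build chlorophyll, the factors that splice and translate plastid RNA, and the chaperones that fold plastid proteins. Heat is known to shift transcription towards chaperones, and loss of oxygen stops respiration, so that cells live on fermentation and save energy on growth and synthesis.

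Replicate arrays correlated at 0.965 to 0.979 across the 14535 probe sets with a log2 value of at least 4 on at least 2 arrays. Median intensity was 36.8 and 42.65 in heat then anoxia and 42.5 and 39.5 in heat. It was 46.1 and 48.4 in anoxia and highest in control, at 50.9 and 53.25. These levels were left as deposited, so differences from control include them. The difference between the 3′ and 5′ probe sets of the GAPDH control ran from 0.64 to 1.10 on the log2 scale, and that of the actin control from 4.61 to 4.95. Both were higher in replicate 2 of every group, while that of the ubiquitin control was lower. The control probe set for 25S ribosomal RNA was far brighter on 1 array of each group kept without oxygen. Its intensity was 22.2 and 2816.3 in heat then anoxia, 56 and 95.5 in heat, 24.3 and 4675.7 in anoxia, and 6.9 and 73.5 in control. Replicate 2 was the brighter array in every group, control included. The far brighter arrays were replicate 2 of heat then anoxia and replicate 2 of anoxia, and the part of that signal in the results was not tested. Of 16 marker genes for cell types of the seedling, 3 are named here. PORB, the light-dependent protochlorophyllide reductase of etiolated shoots, had log2 intensities of 12.17 and 11.85 in heat then anoxia, 13.36 and 13.35 in heat, 13.67 and 13.38 in anoxia and 13.87 and 13.95 in control. EXPA7 and EXPA18, expansin genes of root hairs, were near background outside the controls. EXPA7 stood at 2.07 and 2.00 in heat then anoxia, 2.17 and 2.14 in heat, 1.89 and 1.96 in anoxia and 6.20 and 4.09 in control. EXPA18 stood at 2.54 and 2.04 in heat then anoxia, 2.68 and 3.43 in heat, 2.17 and 2.32 in anoxia and 6.78 and 5.17 in control. Of the 8 root endodermis markers 0 were named.

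On every array the members can be set against their own control mean. The median over the 80 genes was -2.27 and -2.42 on the heat then anoxia arrays, -0.36 and -0.62 on the heat arrays, 0.08 and -0.85 on the anoxia arrays, and 0.14 and -0.14 on the control arrays (log2 intensity minus control mean). For all 5531 probe sets with a control mean of at least 6 the same medians were -0.44 and -0.43 in heat then anoxia, -0.22 and -0.34 in heat, 0.02 and -0.07 in anoxia, and 0.05 and -0.05 in control. The rule fixed that the members are low in heat then anoxia, so these values describe them and carry no test.

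**Figure D1:**
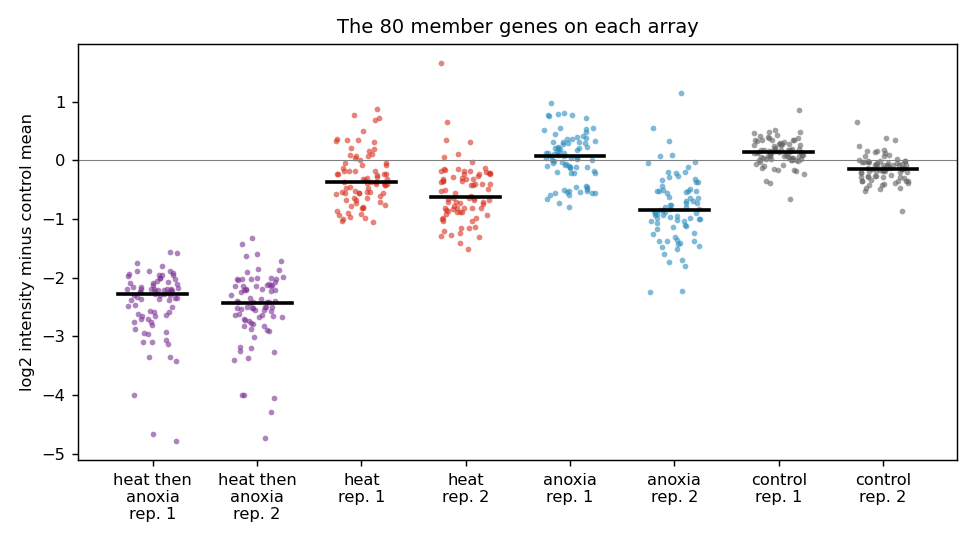
Log2 intensity minus the control mean (vertical axis) of the 80 genes on each of the 8 arrays (horizontal axis), 1 point per gene and a black bar at the median. The medians are -2.27 and -2.42 in heat then anoxia, and the anoxia arrays differ, with 0.08 in replicate 1 and -0.85 in replicate 2.

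The difference between heat then anoxia and control ran from -4.70 to -2.01 over the members, with a median of -2.32, which is 25.98-fold to 4.02-fold lower with a median of 4.98-fold. Heat minus control ran from -0.999 to 1.21 with a median of -0.50, and anoxia minus control from -0.999 to 0.98 with a median of -0.42. The name "lowered only by heat then anoxia" therefore holds at the limits of the rule and not below them. In heat, 40 of the 80 genes stood at least 0.5 below control, in anoxia 31, in both 12, and in neither 21. Both heat arrays were below both control arrays for 47 of 80 members, where 47.9% of all probe sets with a control mean of at least 6 did the same. Both anoxia arrays were below both control arrays for 22 members, where the share of all such probe sets was 26.6%. Since the rule bounds both differences, nothing is read from these counts.

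Among the 5531 probe sets, 539 were at least 4-fold lower in heat then anoxia than in control. Of these, 443 were also at least 2-fold lower in heat, 253 at least 2-fold lower in anoxia and 238 in both, and 81 in neither. The members are those 81 apart from 1 probe set whose heat then anoxia arrays were not both below all others. The members nearest the limit of the combined difference were AT5G43745 (-2.01), AT1G64355 (-2.01) and AT5G44520 (-2.02), and just outside it stood AT5G51890 (-1.99), AT1G65370 (-1.98) and AT1G01320 (-1.97). Members and genes outside thus differ by little at this limit, and the same held for the other limits. For heat minus control the nearest inside were AT3G47250 (-0.999), AT2G36480 (-0.99) and AT3G54750 (-0.97), and the nearest outside AT2G01870 (-1.002), AT5G67150 (-1.01) and AT1G01080 (-1.02). For anoxia minus control the nearest inside were AT1G66820 (-0.999), AT4G11175 (-0.996) and AT2G28410 (-0.99), and the nearest outside AT5G28500 (-1.02), AT5G19750 (-1.06) and AT4G34290 (-1.08). For the control mean the nearest inside were AT5G38290 (6.15), AT3G05410 (6.35) and AT5G64380 (6.36), and the nearest outside AT2G42710 (5.94), AT5G28220 (5.91) and AT1G74070 (5.82).

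The gap between the higher heat then anoxia array and the lowest of the 6 other arrays was 0.06 to 3.82 on the log2 scale, with a median of 1.12. It was widest for AT2G03420 and narrowest for AT5G38290, whose anoxia replicate 2 at 3.92 almost met the heat then anoxia arrays. In 11 members the heat then anoxia mean was below log2 4, near the background of the array, so that the size of their fold depends on the background model.

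If the effects of heat and of anoxia added up on the log2 scale, the combined difference of a gene would equal the sum of its single differences. Over the members that sum had a median of -0.88 and ran from -1.68 to 0.95, while the measured combined difference had a median of -2.32. The excess, which is the interaction, ran from -4.50 to -0.49 with a median of -1.55. It was below 0 for 80 of 80 members and below -1 for 68. Among all 5531 probe sets 52.7% had an interaction below 0, with a median of -0.05, and the share below -1 was not computed. The rule asks for a large combined difference and small single ones, so that the sum is always above -2 and a negative interaction of the members follows from their choice. The heat seedlings also had no further hours after the heat. The interaction can therefore hold time after heat as well as anoxia after heat.

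**Figure D2:**
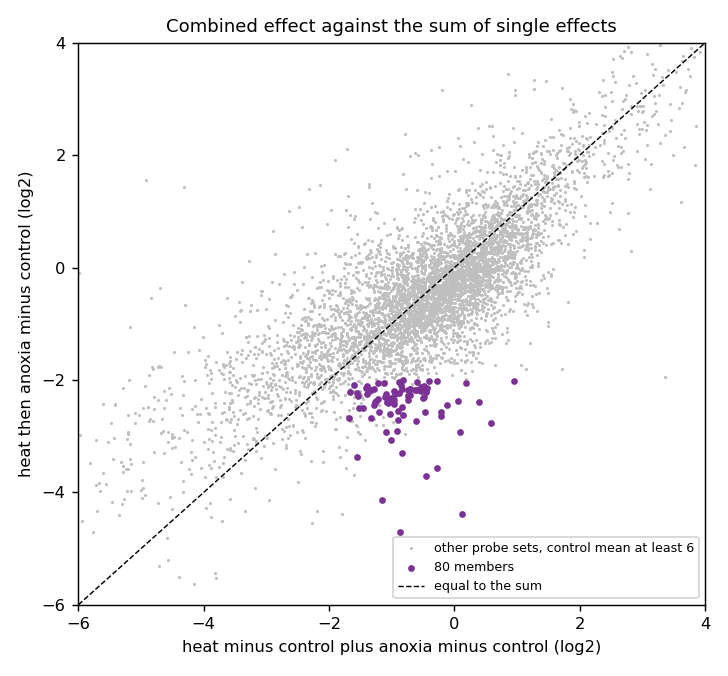
Heat then anoxia minus control (vertical axis, log2) against the sum of heat minus control and anoxia minus control (horizontal axis, log2) for the 80 members and for the other probe sets with a control mean of at least 6. All 80 members lie below the dashed line of equality, and 123 of the 5451 other probe sets lie outside the drawn range of -6 to 4.

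The members lowest against control were 2 genes to which no role is given here. AT2G03420 had log2 intensities of 4.74 and 4.66 in heat then anoxia, 8.68 and 8.56 in heat, 9.85 and 8.77 in anoxia and 9.59 and 9.21 in control. Its heat then anoxia mean was 4.70 ± 0.05 and its control mean 9.40 ± 0.27 (SD, n = 2 each), which is 26-fold lower. AT3G22210 had 3.14 and 3.93 in heat then anoxia, 7.68 and 7.78 in heat, 8.90 and 7.55 in anoxia and 8.13 and 7.71 in control, or 20.9-fold lower in heat then anoxia than in control. In both genes the heat, anoxia and control arrays overlapped or nearly did, and both heat then anoxia arrays lay below all of them by gaps of 3.82 for AT2G03420 and 3.62 for AT3G22210. AT5G42070, also without a role here, had 3.78 and 3.20 in heat then anoxia, 7.30 and 6.59 in heat, 7.71 and 6.28 in anoxia and 7.67 and 6.73 in control and stood 13.1-fold lower. In all, 29 members have no role given, and their combined differences ran from -4.70 to -2.01 with a median of -2.26.

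Roles were given to 51 members by locus, from textbook knowledge and after their values were known, so the groups that follow order the description and are no result. Of the 51, 23 were marked as plastid proteins. These marks may be incomplete, so the other members can hold plastid proteins too. No table of protein location was used for the other genes on the array, so no share can be set beside that count.

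The group with the most members, 17, holds proteins that make, process or translate RNA or finish new proteins, and its combined differences had a median of -2.29. The lowest was AT1G56050, a GTP-binding protein of the ribosome-binding YchF type. It had 4.22 and 3.93 in heat then anoxia, 8.28 and 7.72 in heat, 8.55 and 5.99 in anoxia and 8.25 and 8.18 in control, a difference of -4.14 between heat then anoxia and control. Its heat then anoxia arrays lay far below the others, of which anoxia replicate 2 was the lowest by a wide margin. Also in the group was a pair of enzymes that trim the first residue of new organelle proteins. MAP1C, an organellar methionine aminopeptidase, had 6.43 and 6.85 in heat then anoxia, 9.53 and 9.02 in heat, 9.76 and 7.97 in anoxia and 9.41 and 9.33 in control. PDF1B, the peptide deformylase that removes the formyl group before it, had 7.07 and 6.52 in heat then anoxia, 9.36 and 8.13 in heat, 9.88 and 8.16 in anoxia and 9.74 and 9.05 in control. In both genes anoxia replicate 2 lay between the heat then anoxia arrays and anoxia replicate 1. MAP1C was 6.63-fold and PDF1B 6.09-fold lower in heat then anoxia than in control.

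Factors of plastid translation belonged to the same group. AT4G11175, the plastid translation initiation factor of the bacterial IF1 type, had 6.20 and 5.55 in heat then anoxia, 7.82 and 8.01 in heat, 8.18 and 6.58 in anoxia and 8.38 and 8.37 in control. AT3G12930, an Iojap-type protein that associates with the plastid ribosome, stood at -2.498 in heat then anoxia minus control. PAC (PALE CRESS), needed for plastid RNA and ribosomes, had 4.50 and 4.34 in heat then anoxia, 6.67 and 6.66 in heat, 7.64 and 6.24 in anoxia and 7.06 and 6.67 in control. Its heat arrays and control replicate 2 were nearly equal, and anoxia replicate 2 was a little below them. One gene of the cytosolic ribosome was a member, AT5G15520, which encodes a ribosomal protein of the S19 type, at -2.29.

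Plastid RNA binding and splicing supplied further members. CAF1, a factor that helps remove group II introns from plastid RNA, had 4.41 and 5.41 in heat then anoxia, 7.13 and 6.80 in heat, 7.11 and 6.04 in anoxia and 6.87 and 7.20 in control. CFM3A, another intron splicing factor with CRM domains, had 6.10 and 5.54 in heat then anoxia, 7.11 and 7.34 in heat, 7.54 and 7.07 in anoxia and 7.66 and 8.43 in control. In both, the heat then anoxia arrays were the lowest, as the rule asks of every member, by 0.63 for CAF1 and 0.97 for CFM3A. AT2G37220, a plastid RNA-binding protein with RRM domains, was among the brightest members with 10.12 and 9.80 in heat then anoxia, 11.25 and 11.37 in heat, 11.45 and 11.51 in anoxia and 12.01 and 11.999 in control, and its anoxia replicates were within 0.06 of each other. AT1G12800, which has an S1 RNA-binding domain, stood at -2.11, and the pentatricopeptide repeat gene AT3G59040 at -2.16. AT5G38290, of the peptidyl-tRNA hydrolase family, had 3.02 and 3.86 in heat then anoxia, 6.20 and 5.75 in heat, 6.95 and 3.92 in anoxia and 6.44 and 5.87 in control, and anoxia replicate 2 was as low as heat then anoxia replicate 2 to within 0.06. TRZ4, a tRNase Z that cuts the 3′ ends of tRNA in mitochondria, had 4.86 and 4.95 in heat then anoxia, 6.74 and 6.70 in heat, 7.07 and 6.99 in anoxia and 7.11 and 7.09 in control. Its 8 values fell into a tight low pair and 6 others between 6.70 and 7.11. Further members of the group were AT4G26370 with a NusB-type domain (-2.16), the NOP2/Sun-type RNA methyltransferase AT3G13180 (-2.19) and the pseudouridine synthase AT3G06950 (-2.39).

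Proteins that fold or assemble plastid complexes, or belong to the thylakoid, made up 8 members, with a median combined difference of -2.42. PAM68, an assembly factor of photosystem II, had 5.07 and 5.21 in heat then anoxia, 8.02 and 7.52 in heat, 7.66 and 6.68 in anoxia and 7.86 and 7.56 in control. AT3G05410, of the PsbP family of photosystem II proteins, had 3.70 and 3.15 in heat then anoxia, 5.68 and 6.09 in heat, 7.13 and 6.69 in anoxia and 6.52 and 6.19 in control, with the anoxia arrays the highest. LSMT-L, a plastid protein lysine methyltransferase, had 5.54 and 4.66 in heat then anoxia, 7.71 and 7.38 in heat, 8.14 and 6.66 in anoxia and 8.31 and 7.73 in control, and anoxia replicate 2 lay between the heat then anoxia arrays and the rest. Cpn60beta4, a chaperonin subunit known for folding a subunit of the plastid NDH complex, had 4.92 and 5.82 in heat then anoxia, 7.19 and 6.50 in heat, 8.01 and 7.58 in anoxia and 7.93 and 7.67 in control; its heat arrays were intermediate. AT3G47650, a DnaJ-type zinc finger protein of Rubisco assembly, was bright with 9.79 and 8.95 in heat then anoxia, 11.54 and 11.25 in heat, 11.85 and 10.35 in anoxia and 11.80 and 11.66 in control. The remaining 3 stood close together in heat then anoxia minus control: the rubredoxin-like thylakoid protein AT1G54500 at -2.402, the GrpE-type exchange factor AT1G36390 at -2.36 and the cytochrome assembly protein AT1G49380 at -2.18.

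Enzymes of metabolism numbered 9, with a median of -2.47. CHLI2, a subunit of the magnesium chelatase that commits porphyrin to chlorophyll, had the lowest value of the group. It had 5.63 and 4.68 in heat then anoxia, 9.22 and 8.45 in heat, 9.04 and 7.63 in anoxia and 9.13 and 8.32 in control, and stood 11.9-fold lower in heat then anoxia than in control. HEME2, the uroporphyrinogen decarboxylase shared by heme and chlorophyll synthesis, had 7.48 and 7.29 in heat then anoxia, 9.77 and 9.76 in heat, 9.59 and 8.67 in anoxia and 9.69 and 9.69 in control. The heat and control values of HEME2 were nearly equal, anoxia replicate 2 was below them, and the heat then anoxia arrays were lower again. AT5G64380, of the fructose bisphosphatase family, had 3.02 and 3.09 in heat then anoxia, 5.69 and 5.81 in heat, 6.76 and 5.49 in anoxia and 6.49 and 6.23 in control. AT3G18680, a plastid UMP kinase of pyrimidine nucleotide synthesis, had 6.92 and 6.95 in heat then anoxia, 9.67 and 9.42 in heat, 10.07 and 8.39 in anoxia and 10.00 and 9.69 in control. In both genes the heat then anoxia arrays were close together, and anoxia replicate 2 was the lowest of the rest. PANB2, an enzyme of pantothenate synthesis in mitochondria, had 3.28 and 4.35 in heat then anoxia, 5.90 and 5.66 in heat, 6.48 and 5.61 in anoxia and 6.42 and 6.31 in control, and its heat then anoxia arrays were 1.07 apart. AT2G37660, an NAD(P)-binding protein, was among the brightest members with 9.68 and 9.14 in heat then anoxia, 12.09 and 11.53 in heat, 11.67 and 10.58 in anoxia and 12.26 and 11.51 in control. AT5G44520, of the ribose phosphate isomerase family, was the reverse of most members in the single stresses, with 4.67 and 4.67 in heat then anoxia, 7.41 and 7.002 in heat, 6.99 and 7.24 in anoxia and 6.87 and 6.50 in control. Its 4 heat and anoxia arrays were all above both controls and its heat then anoxia arrays, the lowest by the rule, were equal to 2 decimals. The hydrolase AT3G15650 stood at -2.34 and the iron-dependent oxygenase AT3G19000 at -2.02.

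The 6 redox and stress proteins had a median of -2.504. AT3G52960, a type II peroxiredoxin of plastids that reduces peroxides, had the highest control mean of all members and 11.00 and 10.14 in heat then anoxia, 12.32 and 12.15 in heat, 13.00 and 11.82 in anoxia and 13.13 and 12.79 in control. COR15A, a plastid protein made in the cold that protects membranes from freezing, had 6.74 and 6.39 in heat then anoxia, 9.01 and 8.42 in heat, 9.14 and 7.32 in anoxia and 9.35 and 8.30 in control. Control replicate 2 minus replicate 1 was -1.05, and anoxia replicate 2 was below both controls. AT5G57170, of the MIF family of tautomerases, had 7.07 and 6.84 in heat then anoxia, 9.64 and 9.21 in heat, 10.14 and 9.06 in anoxia and 10.20 and 9.83 in control. The rule sets the order of its heat then anoxia arrays, and their gap to the lowest other array was 2.00. The rhodanese-domain genes AT4G24750 and AT3G08920 stood at -2.63 and -2.38, and AT1G26100, of the cytochrome b561 family, at -2.62.

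The 11 members of signalling, wall, secretion and division had a median of -2.17. IAA20, an Aux/IAA repressor of the auxin response, had 6.07 and 5.84 in heat then anoxia, 7.82 and 7.75 in heat, 8.17 and 8.11 in anoxia and 8.64 and 8.61 in control, with close replicates and no overlap among heat, anoxia and control. AT5G58480, a glycosyl hydrolase of family 17, had 3.36 and 3.31 in heat then anoxia, 5.93 and 5.89 in heat, 6.06 and 5.86 in anoxia and 6.75 and 6.68 in control and stood 10.4-fold lower in heat then anoxia than in control. DELTA-VPE, a vacuolar processing enzyme that cleaves proteins after asparagine, had 4.15 and 3.17 in heat then anoxia, 7.19 and 8.09 in heat, 6.21 and 5.36 in anoxia and 7.28 and 5.57 in control. It is the member with the highest heat minus control, 1.21, and control replicate 2 minus replicate 1 was -1.71. The serine carboxypeptidase-like gene scpl20 had 6.07 and 5.84 in heat then anoxia, 7.04 and 7.26 in heat, 7.62 and 7.56 in anoxia and 8.21 and 7.93 in control. AT5G43745, an ion channel of the plastid envelope, had 5.73 and 5.61 in heat then anoxia, 6.81 and 6.68 in heat, 7.81 and 7.76 in anoxia and 7.61 and 7.74 in control, and its heat arrays lay between heat then anoxia and the other groups. The others stood between -2.21 and -2.04 in heat then anoxia minus control. They were the thaumatin family gene AT4G38660, the protein phosphatase AT3G05640 of the PP2C class, the putative methyltransferase AT1G33170, the vesicle transport gene AT5G56020, the glycosyltransferase family gene AT4G25870 and AT3G43610 of the Spc97/Spc98 family, which nucleates microtubules.

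**Figure D3:**
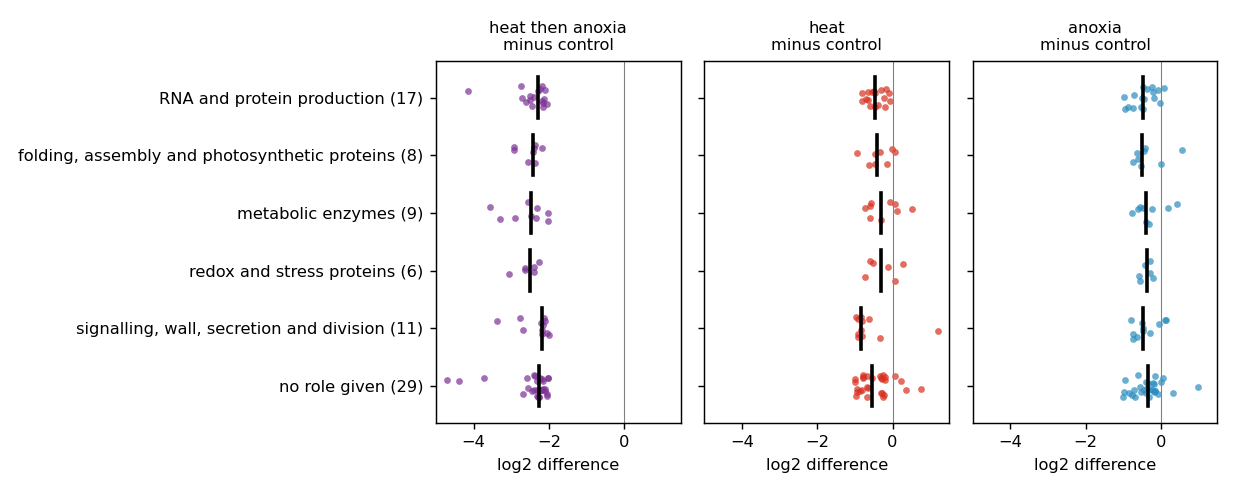
Log2 differences of heat then anoxia, heat and anoxia from control (3 panels, horizontal axes) for the 80 members by role (rows, with the number of genes), 1 point per gene and a black bar at the median. The medians of the 6 rows lie between -2.504 and -2.17 in heat then anoxia, between -0.83 and -0.30 in heat and between -0.50 and -0.35 in anoxia.

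Relatives of several members were measured too. The relatives were picked after values were seen, the rule chose the members for being low, and no test was made between them. Of 7 plastid chaperonin genes listed, 3 were measured, and the relatives of Cpn60beta4 among them stood on the other side of control. Cpn60beta2 had 14.40 and 14.36 in heat then anoxia, 14.44 and 14.41 in heat, 12.02 and 10.62 in anoxia and 11.91 and 11.72 in control. Cpn60beta3 had 10.16 and 9.93 in heat then anoxia, 10.08 and 9.98 in heat, 8.30 and 8.29 in anoxia and 8.37 and 8.48 in control. Their heat then anoxia minus control was 2.57 and 1.62, with nearly the same in heat alone (2.61 and 1.61), against -2.43 and -0.96 for Cpn60beta4.

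Of 26 genes listed for tetrapyrrole synthesis, 8 were measured by a named probe set, so most of the list is unseen. Of these 8, 7 stood at -1 or lower in heat then anoxia minus control and 1 at 1 or higher. Among all 5531 probe sets with a control mean of at least 6, 30.3% and 11.9% did so. The rule required CHLI2 and HEME2 to be low, so the genes it did not choose are 5 of 6 at -1 or lower. The lowest after CHLI2 and HEME2 were PORB (-1.90) and GSA1, which makes the precursor aminolevulinate (-1.52). HEMB1, the next enzyme of the pathway, stood at -1.29, HEME1 at -1.18 and the methyltransferase gene CHLM at -1.14. HEMA2, a glutamyl-tRNA reductase gene at the entry of the pathway, was the exception with 8.88 and 9.30 in heat then anoxia, 8.58 and 8.60 in heat, 7.20 and 7.87 in anoxia and 6.84 and 6.90 in control, or 2.22 against control. For none of the 8 was heat minus control or anoxia minus control at -1 or lower.

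In protein trimming PDF1A stood at -1.78 beside PDF1B at -2.61, while MAP1A and MAP1D stood at -0.08 and -0.74 beside MAP1C at -2.73. Among vacuolar processing enzymes, BETA-VPE stood at -0.63 and GAMMA-VPE at 0.10, against -2.77 for DELTA-VPE. TRZ3, the other mitochondrial tRNase Z, had 5.79 and 5.70 in heat then anoxia, 5.27 and 5.31 in heat, 6.18 and 4.98 in anoxia and 5.89 and 7.37 in control, a combined difference of -0.88 with its controls far apart. COR15B, the other gene of the COR15 pair, had 3.71 and 4.39 in heat then anoxia, 8.61 and 8.46 in heat, 7.19 and 6.46 in anoxia and 7.04 and 4.97 in control. It was high in heat alone, and its combined difference of -1.95 lies just outside the rule. In plastid splicing CFM3B stood at -0.11 and AT5G16140, of the same family as AT5G38290, at 0.81. IAA18, the other named Aux/IAA gene with a control mean of at least 6, stood at -1.09. Of 13 serine carboxypeptidase-like genes at that level, scpl20 included, 10 stood at -1 or lower in heat then anoxia minus control, scpl20 by the rule, where 30.3% of all probe sets at that level did. Of these 10, 7 stood at -1 or lower in heat alone too. In all probe sets tested, the median of heat then anoxia minus control was -0.33.

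**Figure D4:**
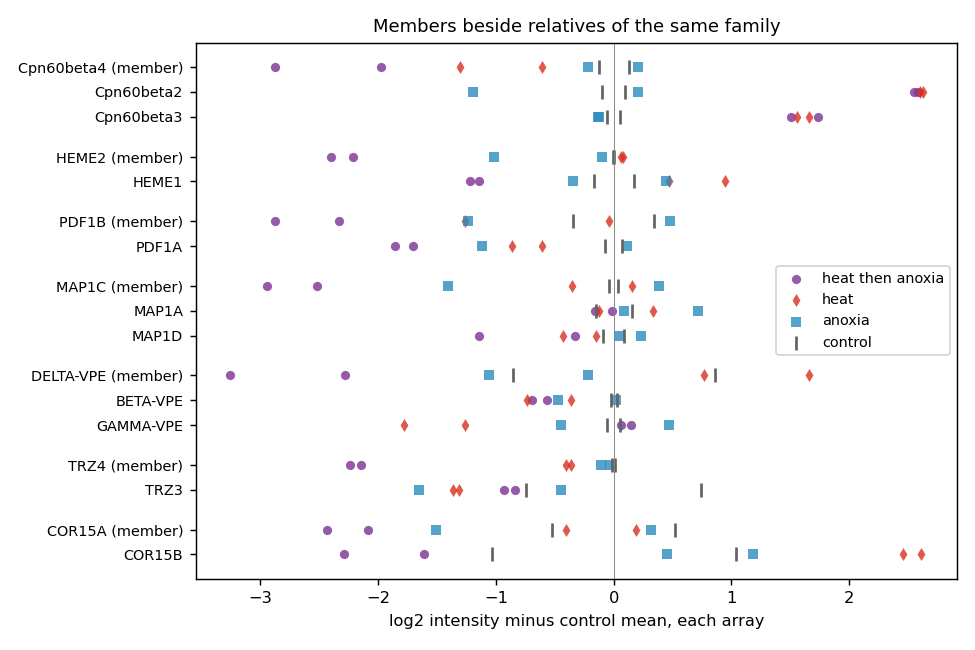
Log2 intensity minus control mean (horizontal axis) on each array for 7 members and relatives with a bright signal (rows), with marker shape and colour giving the group. The heat then anoxia points of Cpn60beta4 lie at the low end while those of Cpn60beta2 and Cpn60beta3 lie with their heat points at the high end; families were picked after values were seen.

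The anoxia replicates differed over these genes. Replicate 2 was below replicate 1 for 72 of 80 members, with a median difference of -0.93 and a range of -3.03 to 0.49. Over all 5531 probe sets it was below for 48.3%, with a median of 0.03. In control the members leaned the same way by less. Control replicate 2 was below for 66 of 80 with a median of -0.28, against 59.0% and -0.09 over all. Heat replicate 2 was below for 62 of 80 with a median of -0.24, against 64.0% and -0.12. Anoxia replicate 1 had a median of 0.08 against the control mean and 0 members at least 2-fold below it, where 10.4% of all such probe sets were. Replicate 2 had a median of -0.85, and 26 members were at least 2-fold below, where 11.95% of all such probe sets were. In 35 members replicate 2 was at least 2-fold below replicate 1, which held for 6.24% of all such probe sets. The rule bounds the mean of the anoxia replicates and keeps each of them above both heat then anoxia arrays. It does not name which replicate is lower, but it used these values, so they describe the members and carry no test.

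The 23 members marked as plastid proteins had anoxia replicate 2 below in 22 cases with a median difference of -1.28. The 28 members with a role and no such mark had it below in 25 with -0.80, and the 29 without a role in 25 with -0.77. The unmarked sets are not sets without plastid proteins. AT5G38290, described above with plastid splicing, is among the unmarked. For the 11 members of signalling, wall, secretion and division the median was -0.06. The widest differences were -3.03 for AT5G38290, -2.57 for AT1G56050 and -2.01 for AT5G02710, and COR15A stood at -1.82. Of the 8 exceptions the highest were AT3G05640 (0.49), AT5G45760 (0.33) and AT5G44520 (0.26). The other 459 probe sets that were at least 4-fold lower in heat then anoxia had replicate 2 below in 51.0% with a median of -0.03. Anoxia replicate 2 is also the array with the highest 25S ribosomal signal, and whether that signal bears on the difference was not tested. Heat then anoxia replicate 2, with the next highest 25S signal, was below its replicate 1 for 47 of 80 members, with a median difference of -0.12, and 46.4% of all 5531 probe sets did the same.

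**Figure D5:**
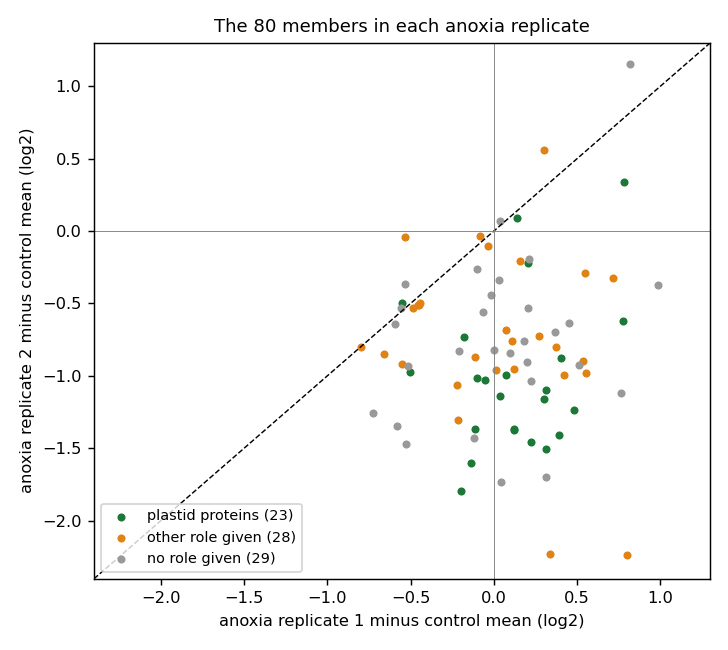
Anoxia replicate 2 (vertical axis) against anoxia replicate 1 (horizontal axis), both as log2 intensity minus the control mean, for the 80 members, coloured by plastid protein, other role or no role. Of the 80 points 72 lie below the dashed line of equality, among them 22 of 23 marked as plastid proteins. The other 2 colours can hold plastid proteins too.

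The order of heat and anoxia was not set by the rule and was tested over all 14535 probe sets with limma, where a gene was called if it differed 2-fold or more and its Benjamini-Hochberg adjusted p was under 0.05. In heat, 1 of 80 members was higher than in anoxia, where 9.46% of all probe sets were called higher, and 3 were lower, where 12% of all were. Both shares of members are below the background, and the rule bounds both groups relative to control, which limits how far they can lie apart. Over the members heat minus anoxia had a median of -0.15, against -0.20 over all probe sets. The whole table gave 1375 calls higher in heat and 1739 lower, but 1649 higher and 1299 lower once each array was centred on its median.

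AT5G45760 had 4.57 and 4.31 in heat then anoxia, 5.93 and 5.46 in heat, 7.31 and 7.64 in anoxia and 6.36 and 6.62 in control. Heat minus anoxia was -1.78 ± 0.27 (SE; limma adjusted p = 0.00236), and the heat and anoxia arrays did not overlap. AT5G43745, the envelope channel gene, stood at -1.04 ± 0.21 (SE; limma adjusted p = 0.00939) and AT3G05410, of the PsbP family, at -1.03 ± 0.30 (SE; limma adjusted p = 0.0411). AT3G61770, without a role here, had 6.62 and 6.62 in heat then anoxia, 9.16 and 8.91 in heat, 8.22 and 7.46 in anoxia and 8.89 and 8.72 in control and was higher in heat by 1.20 ± 0.29 (SE; limma adjusted p = 0.0209). Heat lay above anoxia on both arrays of AT3G61770. DELTA-VPE had the largest difference, 1.85 ± 0.62 (SE), and was not called (limma adjusted p = 0.0663). AT1G62780, at 1.19, and AT1G21500, at 1.14, were not called either (limma adjusted p = 0.134 and 0.0633), nor was AT5G56020 at -1.09 (limma adjusted p = 0.135). With the replicate number as a block, AT1G21500 and AT5G56020 were called (limma adjusted p = 0.0462 and 0.0397), though the labels tie same-numbered arrays by nothing but the number. AT5G45760 kept its call with any 1 array left out, and the other calls did not. The number of members called also changed when either anoxia array was left out. Nothing is read from those numbers, since anoxia then rests on 1 array. AT3G61770 stood at 0.81 without anoxia replicate 2 (limma adjusted p = 0.0829), and it lost its call when heat replicate 1 or heat replicate 2 was left out (limma adjusted p = 0.112 and 0.0607). AT3G05410 lost its call when any 1 of the heat, anoxia or control arrays was left out (limma adjusted p = 0.0559 to 0.1996), and AT5G43745 when heat replicate 2 was (limma adjusted p = 0.0615).

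Genes of growth, hormone, light, transport and division pathways were set beside the members from lists of 165 loci, of which 13 are named on the array and 10 passed the filter. In heat then anoxia, 0 of the 10 were called higher than control, where 15.2% of all probe sets were, and also 0 at an unadjusted p under 0.05, since on the deposited scale all 10 stood below control. Of the 10, 3 were called lower, where 25.4% were (by the same limma thresholds). These shares depend on the scaling: 2205 probe sets were higher and 3686 lower as deposited, but 3193 higher and 2317 lower after each array was centred on its median, with 0 list genes higher and 2 lower. The list median was -0.57, against -0.33 over all probe sets tested, a median that is -0.18 after quantile normalization and 0.06 after median centring. COB, which orients cellulose in the growing wall, had 8.52 and 8.74 in heat then anoxia, 8.79 and 9.03 in heat, 9.90 and 10.01 in anoxia and 10.98 and 10.92 in control and fell by 2.32 ± 0.22 (SE; limma adjusted p = 0.000137). PORB fell by 1.90 ± 0.23 on the log2 scale (SE; limma adjusted p = 0.000453). PRL, of the helicase that opens DNA for replication, fell by 1.81 ± 0.56 (SE; limma adjusted p = 0.0282). The count of lower genes was 2 without heat then anoxia replicate 2 and without either control array. The tubulin genes TUB1, TUB5, TUB6 and TUA6 were not called, and stood between -0.95 and -0.40. EIN3 of ethylene signalling and the receptor kinase genes FER and THE1 stood at -0.24, -0.44 and -0.34 and were not called. No member is on these lists.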

How the data were processed

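Linear intensity was deposited for 8 ATH1 arrays, computed by the authors with GCRMA, which models background from probe sequence, per the submitters' processing notes; its version is not given in the sources used here. Their log2 was taken with no further normalization. Group means and the rule were computed in Python 3.11.15 with pandas 2.3.3. Probe sets with log2 of at least 4 on at least 2 arrays, 14535 of 22746, entered 1 limma fit of the 4 groups (version 3.58.1, R 4.3.3) on 4 residual degrees of freedom, and p-values were adjusted by Benjamini-Hochberg over all of them. Array number, 2 per group, limits the precision. The procedure was tested on simulated data.

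The members, roles, lists, relatives and the families drawn were chosen with earlier results of these data known. The labels call the replicates biological without naming separate cultures. Names came from the platform annotation and RefSeq (TAIR10.1). Of the probe sets that meet the numbers of the rule, 74 have no gene name and 2 have several genes, and these are not members. Members were to be named if they were among the 12 lowest in heat then anoxia minus control, had a symbol, were among the 3 nearest inside a threshold, as were the 3 probe sets nearest outside it, were among the 6 brightest controls or were among the 4 highest or 4 lowest in heat minus anoxia, as were the 3 genes of each list that moved most. Other members and relatives were named after their values were seen. Cell type, location and sequence tables were not used here. Alternatives were other thresholds and scalings, other fits, a replicate block and leaving out arrays.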

Additional observations from a re-analysis of the deposited data

Results flagged for a closer look

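The control probe set for 25S ribosomal RNA, which takes no part in the comparisons, was above the higher control array (73.5) on 3 treated arrays. Its intensity was 2816.3 on heat then anoxia replicate 2, 95.5 on heat replicate 2 and 4675.7 on anoxia replicate 2. Without the anoxia and heat then anoxia arrays of high 25S signal, the rule found 99 probe sets, of which 65 are among the 80. The receptor kinase gene FER, from the pathway lists, had an interaction of 1.55 ± 0.36 (SE, limma adjusted p = 0.0488), fitted in the main setting only. THE1 of the same list had 1.79 ± 0.55 (SE, limma adjusted p = 0.104). No group had heat and then 6 hours with oxygen, so anoxia after heat and time after heat cannot be told apart. The log2 intensities of FER were 10.57 and 10.45 in heat then anoxia, 9.73 and 9.89 in heat, 9.82 and 10.40 in anoxia and 10.92 and 11.00 in control.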

How the results depend on the processing

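Of the 80 members, 50 were found again after quantile normalization (58 by the rule) and 29 after median centring (49 by the rule). The rule found 251 probe sets with a fall limit of 1.5, 24 with 2.5, and 21 with the single stresses above -0.5. Leaving out 1 array gave 55 (without anoxia replicate 1, with 54 shared) to 107 (without heat then anoxia replicate 1, with 70 shared). The median of heat then anoxia minus control over the 80 was -2.14 after quantile normalization, -1.92 after median centring and -2.503 to -2.21 with 1 array left out. The median interaction was -1.45 and -1.64 after these scalings and -1.92 without both arrays of high 25S signal, an alternative chosen after seeing the data. With 1 array left out it was -1.97 (anoxia replicate 2) to -1.09 (anoxia replicate 1). Heat then anoxia minus control of the 45 named members ran from -4.89 to -1.32 under 6 alternatives; the rule fixes its sign, so this is no sign of stability.

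Members called higher in heat than in anoxia numbered 2 with an intensity trend, with quantile normalization and with median centring, and 0 at adjusted p below 0.01 and without both arrays of high 25S signal. Members called lower numbered 1 after either scaling. Over all probe sets, 1506 were higher and 1450 lower after quantile normalization, and 1649 higher and 1299 lower after median centring. With an intensity trend, 1373 of all were higher. With 1 array left out the counts were 0 to 11 higher and 1 to 5 lower. Median centring gave 3193 calls higher in heat then anoxia and 2317 lower, against 2205 higher and 3686 lower as deposited. In heat against anoxia, 936 were lower at adjusted p below 0.01, 994 without both arrays of high 25S signal, and 1106 to 1692 with 1 array left out. The causes were not tested.

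The labels tie the replicates by number only. Deviations of same-numbered arrays correlated at 0.02 to 0.30 between groups, above 0 in every pair of groups. The value was 0.30 for heat then anoxia with anoxia and with control, 0.27 for heat with anoxia and 0.02 for heat with control. Whether same-numbered arrays share a batch was not tested. With the replicate number as a block, 2 members were called higher and 4 lower in heat than in anoxia, in place of 1 and 3. Over all 14535 probe sets, 1431 were called higher and 1854 lower with that block. AT1G21500 and AT5G56020 were the members added. The planned search for promoter letters was not run, since no promoter sequences were used here.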

Other observations

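Besides the 80 members, 74 probe sets with no gene name and 2 with several genes met the same numbers, so that 156 probe sets in all met them. Chromosomes 1 to 5 hold 22.5%, 15%, 28.8%, 13.8% and 20% of the members (18, 12, 23, 11 and 16 genes), against 25.5%, 14.7%, 20.8%, 14.9% and 24.2% of the 5531 probe sets with 1 nuclear gene and a control mean of at least 6.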
